A study of Mus musculus with 20 samples.

Results

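The 6 peak lists of RbL cells were joined into 432655 regions on chromosomes 1 to 19, by merging peaks that shared at least 1 bp, and each region was classed by which of 4 antibodies had a peak in it. H3K27me3 and TFIIIC were counted only where both of their libraries had a peak, and CAP-D3 and CAP-H2, with 1 library each, where that library had one. By this rule 236423 regions fell into the 15 possible combinations, and 196232 (45.4% of all) held nothing but single-library peaks of H3K27me3 or TFIIIC. The 12 lists of both genotypes merged in the same way gave 496693 regions, and the 6 wild-type (WT) lists 378700.

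RbL cells are mouse embryonic fibroblasts (MEFs) from C57BL/6 embryos (E13.5) with the genotype Rb1L/L, taken at passage 4 while cycling without synchronisation, and the WT cells were their wild-type equivalents. The L allele changes the cleft through which pRb, the retinoblastoma protein, holds partners with an LXCXE motif. Chromatin for H3K27me3, CAP-D3 and CAP-H2 was fixed with 2 mM EGS, a long protein crosslinker, before 1% formaldehyde, and chromatin for TFIIIC with 1% formaldehyde only, so every overlap with TFIIIC joins differently fixed cells. The labels do not say whether libraries of a group came from separate cultures, so their spread may be technical.

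Condensin II is a ring-shaped complex that folds chromosomes and, unlike condensin I, is in the nucleus throughout the cell cycle; CAP-D3 and CAP-H2 are subunits found in it and not in condensin I. TFIIIC binds the internal promoters of tRNA genes and other RNA polymerase III genes and also sits at sites without that polymerase. H3K27me3 is the mark left by Polycomb repressive complex 2 over silenced developmental genes, often across wide domains. Regions are given by their position on the mm9 build, as genes and sequences of that build were not analysed here.

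Most regions carried 1 antibody. Of the 236423 counted regions, 217385 (91.9%) had 1, 16765 (7.09%) had 2, 2143 (0.906%) had 3 and 130 (0.0550%) had all 4. TFIIIC by itself made up 173530 regions, or 73.4%, followed by CAP-H2 by itself (27739), H3K27me3 by itself (12845), CAP-D3 with CAP-H2 (6181), TFIIIC with CAP-H2 (4878), H3K27me3 with TFIIIC (4699) and CAP-D3 by itself (3271). The triple of TFIIIC, CAP-D3 and CAP-H2 had 1776 regions. TFIIIC with CAP-D3 (454), H3K27me3 with CAP-D3 (352) and H3K27me3 with CAP-H2 (201) were the rarer pairs. The triples with H3K27me3 had 146 regions with both condensin II subunits, 136 with TFIIIC and CAP-D3, and 85 with TFIIIC and CAP-H2. Every combination occurred on 18 or 19 of the 19 autosomes. The numbers with H3K27me3 depended on requiring both of its libraries: without replicate 1 or 2 of RbL H3K27me3, H3K27me3 alone had 39811 or 28030 regions and H3K27me3 with TFIIIC 8825 or 7170. Without replicate 2, H3K27me3 had 318 regions with both subunits, 365 with CAP-H2, and 134 with TFIIIC and CAP-H2. Without replicate 1 of RbL TFIIIC, the triple of H3K27me3, TFIIIC and CAP-D3 had 208.

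**Figure D1:**
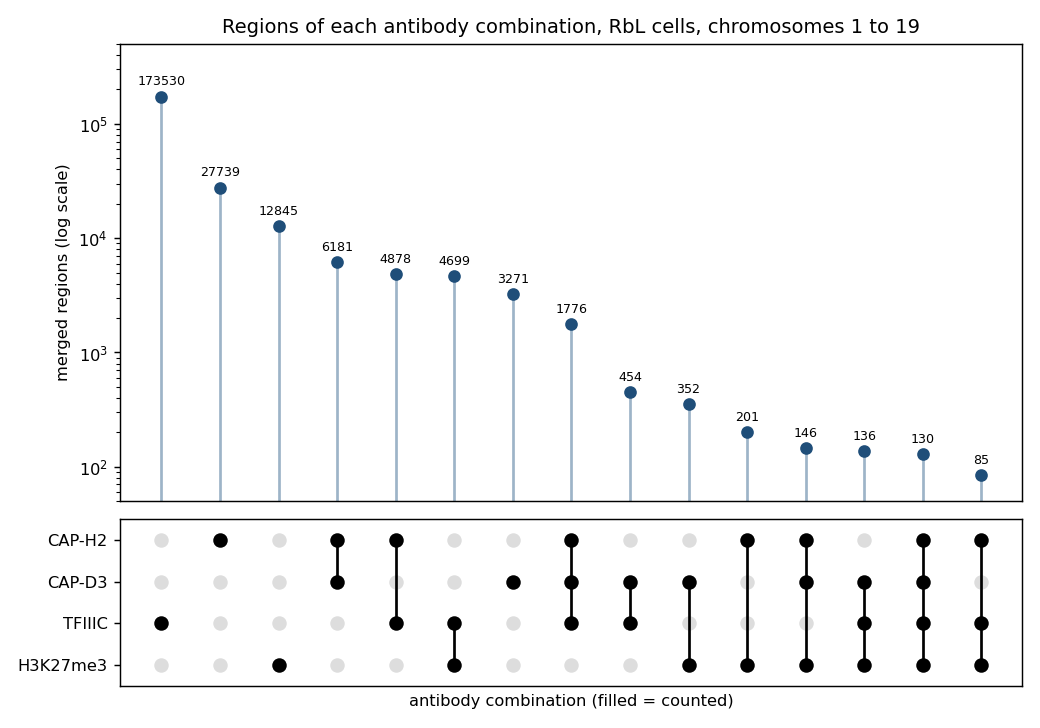
Number of merged regions (y axis, log scale) of each of the 15 antibody combinations in RbL cells; filled dots below name the antibodies of each. The scale runs from 173530 regions of TFIIIC alone to 85 of H3K27me3, TFIIIC and CAP-H2.

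The antibodies differed in how often they were found without any other. TFIIIC was alone in 93.5% of its 185688 regions (95% exact binomial interval 93.3 to 93.6), H3K27me3 in 69.1% of 18594, CAP-H2 in 67.4% of 41136 and CAP-D3 in 26.3% of 12446 (25.5 to 27.1). Over all 432655 regions, CAP-D3 was counted in 2.88%, CAP-H2 in 9.51%, TFIIIC in 42.9% and H3K27me3 in 4.3%. A region exists only where something was called, so these shares are a background for reading counts and not a rate expected by chance. All binomial intervals cover counting error only, and with 1 library of each subunit the condensin II calls have no replicate check.

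CAP-D3 and CAP-H2 formed the closest pair, but in unequal parts. CAP-H2 was present in 8233 of the 12446 CAP-D3 regions (66.1%, 65.3 to 67.0), whereas CAP-D3 was present in 20.01% of the CAP-H2 regions (19.6 to 20.4). Of the bases under CAP-D3 peaks, 57.7% were also under a CAP-H2 peak, which is 32.2 times the share of the autosomal span that CAP-H2 covers (1.79%). In the 6181 regions of the pair without the other antibodies, the best peaks of the subunits shared a base in 99.8%, and their centres were a median of 161 bp apart (quartiles 71.0 and 308 bp). Stronger CAP-D3 peaks had CAP-H2 more often: in 4 equal groups by CAP-D3 score, from highest to lowest, 77.6%, 71.1%, 59.6% and 57.5% overlapped a CAP-H2 peak. In 4 equal groups by peak width, from widest to narrowest, the shares were 83.4%, 71.3%, 61.2% and 50.03%. With only the 12926 top-scoring peaks of each list, the length of the CAP-D3 list, CAP-H2 was at 36.6% of CAP-D3 regions.

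The strongest regions of the pair, ranked by the lower of the score percentiles in the lists concerned, lay on chromosome 1 from 157881785 to 157884245 (score 3230 for CAP-D3 and 3100 for CAP-H2), on chromosome 13 from 49747675 to 49749269 (3145 and 3100) and on chromosome 5 from 22937410 to 22942042 (3100 and 3221). Scores are the authors' own for each peak and order peaks of the same list only; 3100 is a value at which many peaks are tied. At all 3, WT cells had a peak of both subunits, and at the second and the third also TFIIIC in both WT libraries. RbL TFIIIC had no peak at the first 2 and a peak in library 1 at the third.

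H3K27me3 was unevenly divided between the condensin II subunits. It was counted in 488 of the 4213 regions with CAP-D3 and without CAP-H2 (11.6%, 95% interval 10.6 to 12.6), in 276 of the 8233 with both subunits (3.35%, 2.97 to 3.76), and in 286 of the 32903 with CAP-H2 and without CAP-D3 (0.869%, 0.772 to 0.976). Each H3K27me3 library gave the same order: both had 13.3% at CAP-D3 without CAP-H2, against 6.72% and 4.40% at both subunits (mean 5.56 ± 1.64%, SD, n = 2) and 1.52% and 1.29% at CAP-H2 without CAP-D3. The order also held on each of the 19 autosomes, where the share ranged from 4.80% to 15.4% at CAP-D3 without CAP-H2, from 1.67% to 4.89% at both subunits and from 0.444% to 1.56% at CAP-H2 without CAP-D3. No test was run, since these are calls of 1 library per subunit.

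In counts of bases, which do not depend on merging, H3K27me3 also differed between the subunits. It covered 3.16% of the bases under CAP-D3 peaks, 3.0 times its share of the autosomal span (1.05%), and 0.565% of the bases under CAP-H2 peaks, 0.536 times that share. In single libraries these ratios were 2.83 and 1.84 for CAP-D3, and 0.766 and 0.424 for CAP-H2. Bases under both subunits were at a ratio of 1.22 with both H3K27me3 libraries required, and at 1.88 and 0.832 in the single ones, which lie on opposite sides of 1. Library 1, with 1.88, is listed with the same input as both condensin II libraries, and the part of this was not tested. In the same groups by CAP-D3 score, from highest to lowest, 12.7%, 16.9%, 13.1% and 3.64% of CAP-D3 peaks that did not overlap CAP-H2 overlapped peaks of both H3K27me3 libraries. Those that did overlap CAP-H2 gave 2.99%, 2.57%, 1.45% and 1.02%. In each of the 4 groups by score, and in each of the 4 by width, peaks without CAP-H2 had the higher share. With the 12926 top-scoring peaks of each list, the difference between regions without and with CAP-H2 was 3.62 percentage points instead of 8.23.

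**Figure D2:**
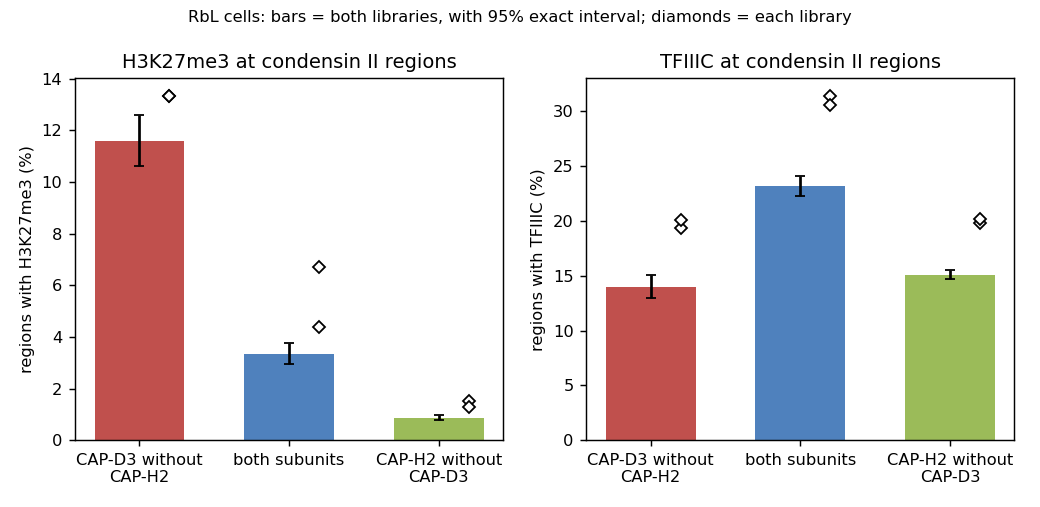
Percent of RbL regions (y axes) that hold H3K27me3 (left) or TFIIIC (right), for regions with CAP-D3 without CAP-H2, both subunits, and CAP-H2 without CAP-D3; bars count both libraries with 95% exact intervals, and diamonds are the single libraries. H3K27me3 falls from 11.6% to 3.35% and 0.869%, and TFIIIC is highest at both subunits (23.2%).

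Read from the other side, CAP-D3 regions with H3K27me3 had CAP-H2 less often than CAP-D3 regions without it. CAP-H2 was found in 36.1% of the 764 CAP-D3 regions with H3K27me3 (32.7 to 39.7) and in 68.1% of the 11682 without it (67.3 to 69.0). The share was higher without H3K27me3 on each of the 19 autosomes, by a median of 33.0 percentage points. CAP-D3 and H3K27me3 mostly shared bases where they met as a pair: of the 352 regions, 83.0% had a base under every library of both antibodies, while 38.9% and 46.3% of the best CAP-D3 peaks were wholly inside the best H3K27me3 peak of library 1 and 2. Regions with wide H3K27me3 peaks held condensin II more often. In the widest of 4 equal groups (largest H3K27me3 peak of 1903 bp or more), 9.85% had CAP-D3 and 6.24% CAP-H2, against 1.38% and 1.44% in the narrowest. A longer peak can meet more peaks of any kind, and the part of length in this contrast was not tested. H3K27me3 coverage around the centres of CAP-D3 regions without CAP-H2 declined with distance, from 9.02% at the centre to 5.41% at 2 kb, 2.60% at 10 kb and 1.90% at 50 kb. Around CAP-H2 regions without CAP-D3 it was 0.617% at the centre and rose to 1.21% at 50 kb.

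The 3 leading regions of H3K27me3 with CAP-D3 had the score of 3100 in all 3 libraries concerned. They lay on chromosome 14 from 104853064 to 104874487, on chromosome 12 from 50485336 to 50503448 and on chromosome 6 from 51128205 to 51143695, and spanned 21424, 18113 and 15491 bp. WT cells had the same combination at all 3. H3K27me3 with CAP-H2 was led by chromosome 11 from 96121421 to 96139753 (3100 in all 3 libraries), followed by chromosome 8 (92187388 to 92197484) and chromosome 15 (102824635 to 102831752). CAP-D3 had a WT peak at the first and second of these and none at the third. The triple of H3K27me3, CAP-D3 and CAP-H2 was led by a region of chromosome 3 (93243772 to 93257262), one of chromosome 1 (193006664 to 193009857) and one of chromosome 2 (18597707 to 18601705), all of which had the triple in WT too.

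TFIIIC joined merged regions of both subunits more often than those of 1 subunit. It was counted in 1906 of 8233 regions with both (23.2%, 22.2 to 24.1), in 590 of 4213 with CAP-D3 and without CAP-H2 (14.0%, 13.0 to 15.1) and in 4963 of 32903 with CAP-H2 and without CAP-D3 (15.1%, 14.7 to 15.5). In single TFIIIC libraries the shares were 31.4% and 30.5% at both subunits (mean 31.0 ± 0.60%, SD, n = 2), 19.3% and 20.1% at CAP-D3 without CAP-H2, and 19.8% and 20.1% at CAP-H2 without CAP-D3. Regions with both subunits had the higher share on all 19 autosomes in each comparison. The difference from CAP-D3 without CAP-H2 was 9.15 percentage points in merged regions and 3.69 when single CAP-D3 peaks had to share a base with a stretch under both TFIIIC libraries; with the 12926 top-scoring peaks of each list it was 3.28. Among CAP-D3 peaks it was seen in the upper 2 groups by score (21.1% of peaks with CAP-H2 against 14.5% without, and 15.4% against 8.15%), was small in the third (10.2% against 9.82%) and had the opposite sign in the lowest (9.74% against 11.2%). CAP-H2 peaks with CAP-D3 had the higher TFIIIC share only in the top group by score (26.6% against 20.2% without CAP-D3). In the lower groups the order was opposite, at 12.15% against 13.9%, 9.22% against 15.02% and 10.6% against 12.2%. By width, CAP-H2 peaks with CAP-D3 had the higher share in the wider 2 groups (26.2% against 23.3% in the widest). They had the lower share in the narrower 2 (10.1% against 15.5% in the narrowest).

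At the level of bases, RbL TFIIIC covered condensin II peaks at close to its share of the autosomes. Stretches under both TFIIIC libraries took up 6.82% of the autosomal span and 6.78% of the bases under both CAP-D3 and CAP-H2 (ratio 0.994), 6.42% of all CAP-D3 bases (0.941) and 8.20% of all CAP-H2 bases (1.20). By single library, 12.5% and 11.3% of the bases under both subunits were covered (ratios 1.18 and 1.05). In WT the corresponding values were 26.7% and 22.75%, 4.49 and 3.03 times the share of the span that each WT library covers.

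At 10 kb and 50 kb from condensin II regions TFIIIC covered more than its share of the span, as it did around another class. Around regions with both subunits, stretches of both RbL TFIIIC libraries covered 10.6% of region centres, 8.33% of positions 1 kb away, 14.99% at 10 kb and 13.0% at 50 kb, and all of these are above the 6.82% of the autosomal span. Around regions with CAP-D3 and without CAP-H2, the values were 8.43%, 5.29%, 11.4% and 10.7%. Around regions with CAP-H2 and without CAP-D3, they were 9.61%, 7.11%, 10.02% and 9.38%. H3K27me3 regions without condensin II gave 10.65%, 5.17%, 9.41% and 12.76%. Coverage above the share of the span was therefore not particular to condensin II regions. The centre of a merged region shifts towards a TFIIIC peak that it takes in, which the counts of bases above do not.

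Centres had less TFIIIC than positions 10 kb away in RbL, and more in WT. Around regions with both subunits, RbL libraries 1 and 2 covered 17.1% and 16.05% of centres and 21.9% and 21.8% of positions 10 kb away, a ratio of 0.784 and 0.736 (mean 0.760 ± 0.034, SD, n = 2). In WT, around the 9037 regions with both subunits, 30.0% and 26.9% of centres and 12.9% and 16.2% of positions 10 kb away were covered, a ratio of 2.32 and 1.65 (mean 1.99 ± 0.47, SD, n = 2). At 1 kb, libraries of both genotypes were below their 10 kb values, with 12.6% and 12.8% in RbL and 11.0% and 11.99% in WT. Any peak that touches a region is merged into it, so bases just outside its edge are free of peaks by rule. The low values at 1 kb can therefore not be read as a result. The RbL and WT ratios did not overlap; the exact permutation test, two-sided, gave p = 0.333, the smallest that 2 libraries against 2 can give. For CAP-D3 without CAP-H2 the ratios were 0.769 and 0.783 in RbL and 1.58 and 1.19 in WT, with the same p by the same exact test. TFIIIC lists were longer in RbL, where a library covered 10.6% and 10.8% of the span, than in WT (5.95% and 7.51%), and the part of this in the ratios was not tested.

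**Figure D3:**
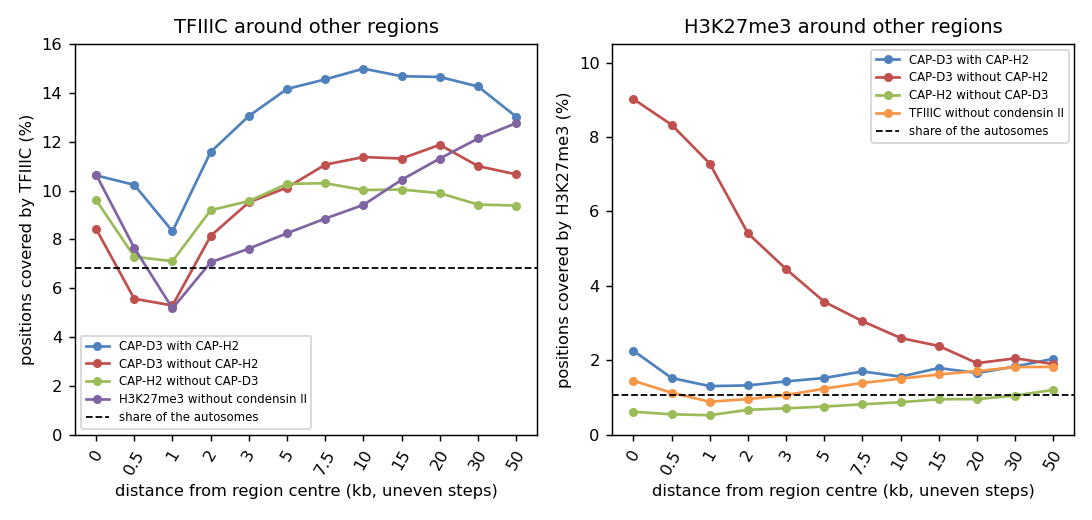
Percent of positions covered by stretches of both RbL libraries of TFIIIC (left) or H3K27me3 (right), by distance from the centres of RbL regions (x axis, kb in uneven steps, both sides averaged); the dashed line is the share of the autosomal span. TFIIIC around regions with both subunits is 10.6% at the centre, 8.33% at 1 kb and 14.99% at 10 kb, and H3K27me3 at CAP-D3 regions without CAP-H2 falls from 9.02% to 1.90% at 50 kb.

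In 948 of the 1776 regions of TFIIIC, CAP-D3 and CAP-H2 (53.4%, 51.0 to 55.7), all of these antibodies had a base in common. The best CAP-D3 and CAP-H2 peaks shared a base in 93.7% and had centres a median of 272 bp apart, while CAP-D3 and TFIIIC shared one in 60.3% and 58.2% (TFIIIC libraries 1 and 2) with centres 952 and 975 bp apart. These regions had a median width of 2746 bp, against 1357 bp for CAP-D3 with CAP-H2, and higher scores, with the CAP-H2 peak at a median score percentile of 84.4 against 71.6. Merging in TFIIIC peaks itself widens a region, and a wider region can hold more peaks from which the best is taken. The part of this in both contrasts was not tested. Their share of the counted regions had a median of 0.718% over the autosomes, with the lowest value, 0.479%, on chromosome 1 and the highest on chromosome 19. The leading ones lay on chromosome 10 from 79604662 to 79618528 and from 80846347 to 80856135, and on chromosome 15 from 77582826 to 77638703, a block of 55878 bp, and WT had the same triple at each.

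The pairs of TFIIIC with a single subunit were closer together. A base was shared by all libraries in 83.3% of the 454 regions with CAP-D3 and in 82.5% of the 4878 with CAP-H2, with median distances between centres of 516 and 510 bp, and of 663 and 674 bp, to TFIIIC libraries 1 and 2. CAP-D3 peaks of the first pair were at a median score percentile of 39.5, below the 64.1 of the triple. TFIIIC with CAP-D3 was led by regions on chromosome 8 (19853007 to 19859187), chromosome 15 (84383179 to 84388674) and chromosome 4 (146033988 to 146035751), all of this pair in WT too. TFIIIC with CAP-H2 was led by regions on chromosome 13 (63390656 to 63411062), chromosome 2 (32628888 to 32643715) and chromosome 7 (106490349 to 106502343), each with the tied score of 3100 for CAP-H2. The second and the third also had CAP-D3 in WT.

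H3K27me3 and TFIIIC met in 5050 regions, 27.2% of those with H3K27me3 (26.5 to 27.8) and 2.72% of those with TFIIIC. Where there was no condensin II, 36.2% and 37.7% of H3K27me3 regions had a peak of TFIIIC library 1 and 2 (mean 37.0 ± 1.04%, SD, n = 2). The pair shared a base across all 4 libraries in 63.7% of its 4699 regions, and TFIIIC covered 6.23% of H3K27me3 bases, 0.913 times its share of the span. Wider marks had more: in 4 equal groups by the largest H3K27me3 peak, from widest to narrowest, 39.1%, 25.7%, 23.3% and 20.5% of regions had TFIIIC. Here too a longer peak can meet more TFIIIC peaks by its length, which was not tested. The share over all H3K27me3 regions depended on how overlap was defined, at 13.504% of stretches under both H3K27me3 libraries when bases had to be shared, 51.7% when peaks up to 1 kb apart were joined, and 0.615% with the 12926 top-scoring peaks of each list. The leading regions were on chromosome 17 (6255011 to 6269039 and 36192445 to 36209828) and chromosome 7 (25706232 to 25742750), and all 3 had both in WT. Chromosome 11 had the highest share of this pair among its counted regions (3.15%) and chromosome 3 the lowest (0.932%).

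The triples with H3K27me3, TFIIIC and 1 subunit were mostly neighbouring peaks joined in a wide region. Only 18 of the 136 with CAP-D3 (13.2%) and 13 of the 85 with CAP-H2 (15.3%) had a base under all antibodies, and their median widths were 5098 and 4463 bp. In the first, the best CAP-D3 peak shared a base with the best H3K27me3 peak in 85.3% and 88.2% (libraries 1 and 2) but with the best TFIIIC peak in 19.1% and 17.6%, with centres 2044 and 2010 bp from TFIIIC. The leading region with CAP-D3, on chromosome 2 from 98502057 to 98505892, had all 4 antibodies in WT. The next, on chromosome 8 from 127307819 to 127329090, had no shared base and the same triple in WT. With CAP-H2, the leading regions were on chromosome 15 from 77785567 to 77791274 and chromosome 7 from 108963926 to 108973525, both without a shared base.

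**Figure D4:**
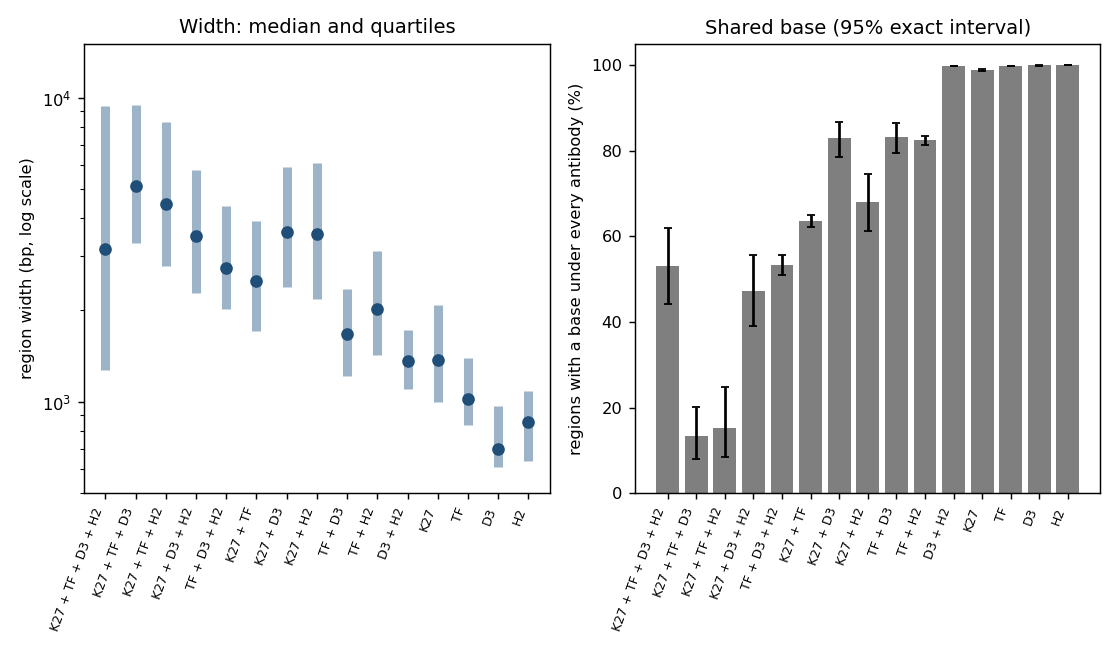
Left, width of the merged regions of each combination (y axis, bp, log scale; dots are medians, bars the quartiles); right, percent of regions with at least 1 base under every library of the combination, with 95% exact intervals. K27, TF, D3 and H2 stand for H3K27me3, TFIIIC, CAP-D3 and CAP-H2; the triples of H3K27me3 and TFIIIC with 1 subunit are the widest (medians 5098 and 4463 bp) and share a base in 13.2% and 15.3%.

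The 130 regions with all 4 antibodies consisted of very different members. In 69 of them all 6 libraries had a base in common, and these were compact, with a median width of 1309 bp (quartiles 1131 and 1815 bp). The other 61 had no such base and a median width of 8872 bp. Of the 69, 61 had a peak in all 12 lists of both genotypes, as did 18 of the 61 wide ones. Over both genotypes 86 merged regions had a peak in all 12 lists, and 79 of the 130 RbL regions overlapped one. The regions with a peak in every list were high in each RbL list, with median score percentiles of 74.7 (CAP-D3), 96.4 (CAP-H2), 95.3 and 93.1 (H3K27me3) and 91.4 and 89.4 (TFIIIC). Without RbL H3K27me3 replicate 2, so that the other H3K27me3 library decided, 235 regions had all 4 antibodies. The 3 leading regions had the score of 3100 in all 6 RbL libraries and a peak in every WT library. They lay on chromosome 17 from 39979419 to 39986296, on chromosome 16 from 11143213 to 11144925 and on chromosome 3 from 5859791 to 5861311. No filter for sequence that gives peaks with any antibody was applied here. Such sequence cannot be told apart from sites where all 4 targets are present.

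TFIIIC was counted in 47.1% of the 276 regions with H3K27me3 and both subunits (41.1 to 53.2), against 26.8% of H3K27me3 regions without condensin II (26.1 to 27.4). The first share was higher on 15 of the 19 autosomes, and the difference ranged from -12.1 to 74.65 percentage points between them. The classes also differed in width. With both subunits, median widths were 3185 bp with TFIIIC and 3492 bp without it, and without condensin II they were 2483 and 1367 bp. TFIIIC was more frequent at wider H3K27me3 peaks in general, and the part of width in this contrast was not tested. Without regions wider than 10 kb the shares were 44.3% and 26.4%. Of the 130 regions with TFIIIC, 79 overlapped a region with a peak in all 12 lists, as did 6 of the 146 without it. Leaving out regions in all 12 lists, TFIIIC was at 51 of 191 regions with both subunits (26.7%) and 4697 of 17538 without condensin II (26.8%). A region in all 12 lists, merged over both genotypes, has TFIIIC peaks by definition. Leaving such regions out therefore removes TFIIIC by its own rule, and the fall from 47.1% cannot be read as a result.

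Regions of single antibodies were narrow, and those of a single condensin II subunit had low scores within their lists. Fewer merged peaks in themselves make a narrower region. Median widths were 700 bp for CAP-D3 alone, 854 bp for CAP-H2 alone, 1016 bp for TFIIIC alone and 1367 bp for H3K27me3 alone. CAP-D3 alone had a median score percentile of 36.1 and CAP-H2 alone of 44.1. A peak of 1 TFIIIC library was present, and not counted, in 11.3% of the regions of CAP-D3 alone, 11.3% of CAP-H2 alone and 27.8% of H3K27me3 alone. A TFIIIC region lay within 10 kb of 71.9% of the regions of CAP-D3 alone, 64.9% of CAP-H2 alone, 76.9% of CAP-D3 with CAP-H2 and 75.3% of H3K27me3 alone. An H3K27me3 region lay within 10 kb of 15.7% of CAP-D3 alone, 13.2% of CAP-D3 with CAP-H2, 11.2% of TFIIIC alone and 7.46% of CAP-H2 alone. No such share was worked out for other positions on the autosomes. With 185688 TFIIIC and 18594 H3K27me3 regions there, these values do not by themselves show closeness.

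The single-antibody combinations also differed in how they were spaced. The median distance to the next region of the same combination was 2.00 kb for TFIIIC alone, 3.33 kb for H3K27me3 alone, 10.8 kb for CAP-H2 alone and 188.5 kb for CAP-D3 alone. H3K27me3 alone, with 12845 regions, lay closer together than CAP-H2 alone, with 27739. CAP-H2 alone had its highest share of counted regions on chromosome 3 (16.8%) and its lowest on chromosome 7 (8.70%), and CAP-D3 alone its highest on chromosome 3 (1.91%) and its lowest on chromosome 5 (1.14%). Chromosome 19 had the lowest share of TFIIIC alone (69.4%) and the highest of H3K27me3 alone (7.58%). The leading regions of CAP-D3 alone were on chromosome 17 (74715003 to 74716153) and chromosome 9 (69245165 to 69246013) (score 3233.06 each), followed by chromosome 6 from 125826620 to 125827368, which had no peak in any WT list. For CAP-H2 alone they were on chromosome 16 (55554798 to 55556172), chromosome 10 (119791587 to 119800281) and chromosome 6 (51404295 to 51412672), all also CAP-H2 alone in WT. H3K27me3 alone was led by chromosome 4 from 126843617 to 126848828, and TFIIIC alone by chromosome 17 from 56585162 to 56597033.

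The WT lists, which had no part in classing the regions, were read at the same positions. Over all RbL regions, WT CAP-D3 had a peak in 3.01%, WT CAP-H2 in 7.94%, both WT TFIIIC libraries in 22.0% and both WT H3K27me3 libraries in 2.38%. The WT calls gave the same combination in 41.7% of the 236423 counted regions. The share was 66.2% for the triple of TFIIIC, CAP-D3 and CAP-H2 (63.9 to 68.4), 59.2% for all 4 antibodies (50.3 to 67.8), 58.1% for CAP-H2 alone, 52.1% for CAP-D3 with CAP-H2 and 52.0% for H3K27me3 with CAP-D3 (46.6 to 57.3). It was lowest for H3K27me3 with TFIIIC (17.5%) and for the triple of both with CAP-D3 (18.4%, 12.3 to 25.9). The 77 regions with all 4 antibodies in both genotypes have a peak in all 12 lists by construction, since their RbL and WT peaks merge. Without RbL H3K27me3 replicate 2 the share was 78 of 235 (33.2%).

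The antibody that was missing in WT differed between combinations. At H3K27me3 with TFIIIC, both WT H3K27me3 libraries had a peak in 51.2% and both WT TFIIIC libraries in 31.5%, and 32.0% of the regions were H3K27me3 alone in WT. At H3K27me3, TFIIIC and CAP-D3, WT H3K27me3 had peaks of both libraries in 84.6% and WT CAP-D3 a peak in 71.3%, while TFIIIC was counted in 36.8%, and 33.8% of regions were H3K27me3 with CAP-D3 in WT. At CAP-D3 with CAP-H2, WT CAP-H2 had a peak in 87.8% and CAP-D3 in 77.6%; both WT TFIIIC libraries had one in 18.9%, although RbL TFIIIC was by definition not counted there, and 15.9% of the regions were the triple with TFIIIC in WT. In number these were 982 of 6181 regions, against 229 of the 1776 of the RbL triple (12.9%) that were CAP-D3 with CAP-H2 in WT. CAP-D3 alone had the WT CAP-D3 peak in 52.1% and CAP-H2 alone the WT CAP-H2 peak in 67.1%. These are shares of RbL regions only, and the read depth of the libraries is unknown here. No test across genotypes was made on these shares.

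**Figure D5:**
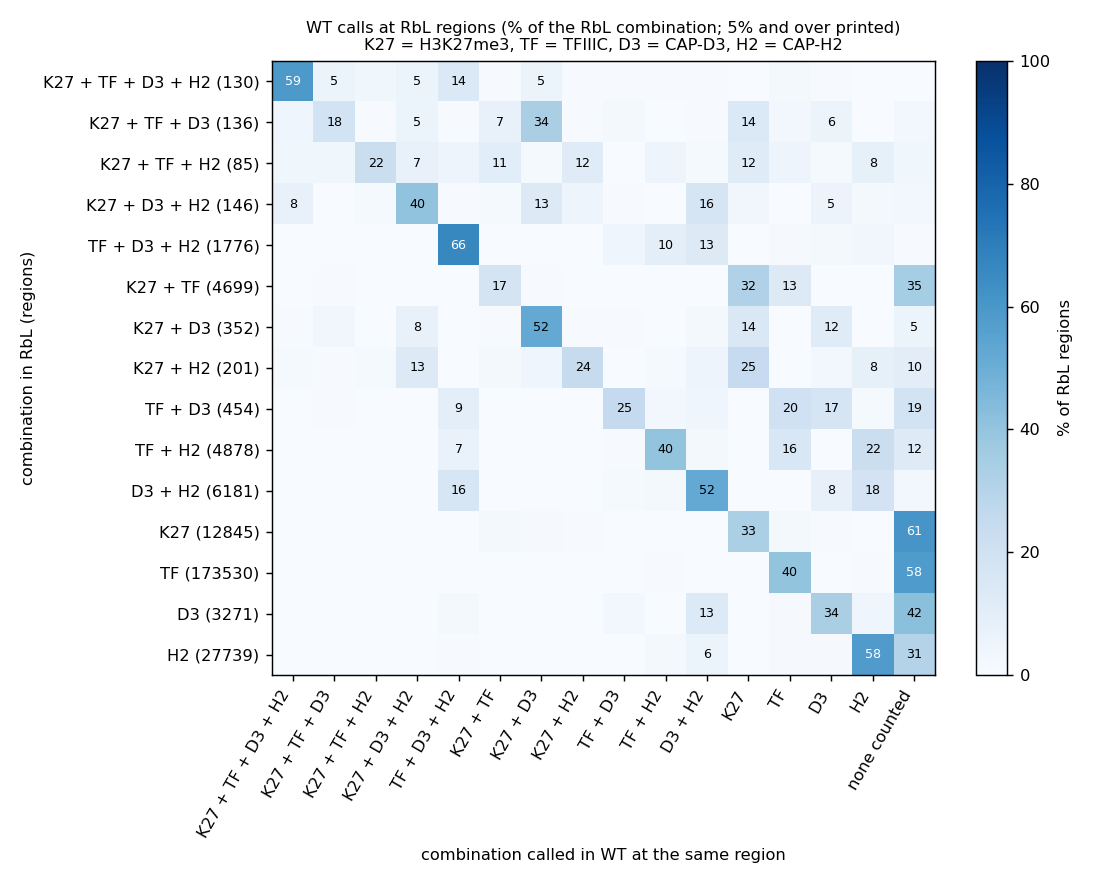
WT combination (columns) called at the regions of each RbL combination (rows, with their number of regions); colour and figures give the percent of the row, printed from 5% upwards. K27, TF, D3 and H2 stand for H3K27me3, TFIIIC, CAP-D3 and CAP-H2; the diagonal is highest for the triple of TFIIIC, CAP-D3 and CAP-H2 (66.2%) and lowest for H3K27me3 with TFIIIC (17.5%).

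The order of the H3K27me3 shares was the same in regions classed by the WT lists. H3K27me3 was counted there in 6.82% of the 7348 regions with CAP-D3 and without CAP-H2 (6.25 to 7.42), 2.38% of those with both subunits and 0.582% of those with CAP-H2 and without CAP-D3. TFIIIC was in 9.62%, 32.1% and 11.9% of the same WT classes, against 14.0%, 23.2% and 15.1% in RbL. Whether these differences exceed the spread between cultures was not tested, as each subunit has 1 library per genotype. WT lists classed alone gave 95 regions with all 4 antibodies against 130, 2808 of TFIIIC, CAP-D3 and CAP-H2 against 1776, 6014 of CAP-D3 with CAP-H2 against 6181, 941 of H3K27me3 with TFIIIC against 4699, and 6199 of CAP-D3 alone against 3271.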

How the data were processed

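Peak lists of 12 immunoprecipitated libraries were used, of the 20 samples in the series. Bowtie2 2.3.0, MACS 1.4.0rc2 and the mm9 build are named in the submitters' processing notes, without settings or order. The authors deposited 1 list per library, not of pooled replicates, with a score per peak in a column without a name; MACS usually writes −10 times log10 of a p-value there, which these sources do not state, and here it only orders peaks of the same list or sets a minimum. The 6 RbL lists held 12926 (CAP-D3), 42626 (CAP-H2), 43610 and 55620 (H3K27me3), and 286175 and 291040 (TFIIIC) peaks on chromosomes 1 to 19; the sources used here give no read depth. Both RbL condensin II libraries and RbL H3K27me3 library 1 are listed with 1 shared input.

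Positions are 1-based. X and unplaced sequences were left out, and no filter for sequence prone to artefact peaks was applied. Python 3.11.15, pandas 2.3.3 and scipy 1.17.1 were used. Coverage by both libraries means bases under a peak of each, and the autosomal span is the sum over chromosomes of the last peak end (2472.3 Mb). A WT combination was read from WT peaks overlapping an RbL region. Intervals are exact (Clopper-Pearson, 95%). Centres are peak or region midpoints, as no summits were used. Merging, classing and overlap were tested on simulated peaks. The 3 regions named per combination, at most, are those with the highest of the lowest score percentile over the libraries required, ties broken by mean percentile and width. Alternatives were a score of at least 100, a gap of up to 1 kb, base-level overlap, either library, equal list lengths, leaving out wide regions, regions in all 12 lists, and each H3K27me3 or TFIIIC library. The members and lists were chosen with earlier results of these data known.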

Additional observations from a re-analysis of the deposited data

Results flagged for a closer look

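Chromosome X lay outside the comparisons, and the RbL lists gave signal there. By the same rules it had 12160 merged regions, 6207 of them in a combination: TFIIIC was counted in 5395, CAP-H2 in 513, CAP-D3 in 279 and H3K27me3 in 132. As a share of counted regions, H3K27me3 was at 2.13% on X and 7.86% on the autosomes, CAP-H2 at 8.26% and 17.4%, CAP-D3 at 4.49% and 5.26%, and TFIIIC at 86.9% and 78.5%. CAP-D3 with CAP-H2 and no other antibody made up 0.789% of counted regions on X (95% exact interval 0.585 to 1.04) and 2.61% on the autosomes, while CAP-D3 alone made up 3.27% (2.84 to 3.74) and 1.38%. The triple of TFIIIC, CAP-D3 and CAP-H2 had 4 regions on X, and all 4 antibodies had 4. These values come from 1 chromosome, with no test, and the sex of the embryos was not taken into account.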

How the results depend on the processing

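The TFIIIC and H3K27me3 differences between CAP-D3 regions with and without CAP-H2 kept their sign under the settings named. So did the RbL minus WT differences in the TFIIIC ratio. Counts and single shares have no direction to change, and their values are given. Regions with all 4 antibodies numbered 130, 424 with a gap of up to 1 kb, 79 as stretches of bases, 377 with either library, 8 with equal numbers of 12926 top-scoring peaks and 51 without regions in all 12 lists, which have all 4 antibodies by definition; leaving out single libraries gave 151 to 235, the highest without RbL H3K27me3 replicate 2. The share of these with all 4 in WT was 81.01% at base level, 35.8% with either library, 87.5% with equal numbers, 0 of 51 (0%) by construction without regions in all 12 lists, and 33.2% (without RbL H3K27me3 replicate 2) to 53.6% without single libraries. CAP-H2 at CAP-D3 regions (66.1%) was 60.8% at a score of at least 100, 69.6% with the gap and 36.6% with equal numbers. The TFIIIC difference of 9.15 points was 12.5 with the gap, 3.69 at base level, 13.4 with either library, 3.28 with equal numbers and 9.15 to 12.1 without single libraries. The H3K27me3 difference of 8.23 points was 6.81 at a score of at least 100, 3.62 with equal numbers, and 6.62 to 8.94 without single libraries. TFIIIC at H3K27me3 regions (27.2%) was 51.7% with the gap, 13.504% at base level, 33.2% with either library, 0.615% with equal numbers, and 18.5% to 38.2% without single libraries. Equal numbers keep a small part of each TFIIIC list; the causes of the other changes were not tested. Of the other 14 combinations, all stayed within 1.5 times their number at a score of at least 100, without regions wider than 10 kb and without regions in all 12 lists, while 12 moved further with equal numbers (11 of them down), 10 with either library (all up), 6 with the gap and 5 at base level. Leaving out single libraries moved 5 of the 14 without RbL H3K27me3 replicate 2, 2 without RbL H3K27me3 replicate 1, 1 without RbL TFIIIC replicate 1 and 0 without RbL TFIIIC replicate 2, all upwards. The RbL minus WT difference in the TFIIIC ratio of centre to 10 kb was -1.22 at both subunits and -0.606 at CAP-D3 without CAP-H2. With the replicate number as a block, the paired exact sign-flip test gave p = 0.5 for both, the smallest that 2 pairs can give; nothing in the labels says that the numbers pair libraries. The single numbers gave -1.53 and -0.918 at both subunits, and -0.808 and -0.405 at CAP-D3 without CAP-H2. The split of the 4-antibody regions and this paired test were chosen after seeing the data. Unknown read depth limits every count of peaks.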
